A study of Homo sapiens with 6 samples.

Results

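The MAGE-A and MAGE-C genes are cancer-testis genes on the X chromosome, and 10 of them were followed here in HEK293T cells: MAGEA1, MAGEA2, MAGEA3, MAGEA4, MAGEA6, MAGEA10, MAGEA12, MAGEC1, MAGEC2 and their neighbour CSAG1. They were chosen by symbol from a table of 20169 gene rows, by pairing its Ensembl identifiers with GENCODE names. A row was found for 9 of the 10, and MAGEA2 was not analysed here. In brief, MAGEA1 and MAGEA6 were among the well-read genes of the line with the CAG landing pad, at 119.6 and 99.3 CPM, and were nearly silent in the line with the PGK landing pad, at 0.0292 and 0.847 CPM, while MAGEA3, the near-identical copy of MAGEA6, stood at 101.4 CPM in CAG and 97.7 CPM in PGK. The other 6 genes were at or near 0 in both lines. The list was drawn up with the values of these libraries known, so the differences between the lines in these genes are given as a description, without a test.

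RNA-seq of polyadenylated RNA was made from HEK293T, an established human embryonic kidney line that carries the SV40 large T antigen. Both groups were clonal derivatives that held a landing pad, a docking site for inserted reporter genes, and they were labelled by its promoter. One line carried the CAG landing pad (3 libraries), a composite promoter of viral and animal parts, and the other the PGK landing pad (3 libraries), the promoter of a phosphoglycerate kinase gene; the labels name no other treatment or allele. The labels tell no more than 1 line per promoter apart, so the promoter and the clone cannot be told apart in any value below, and they leave unsaid whether the 3 libraries of each line are from 3 cultures. The study asks how 3′UTRs shape expression, and these libraries profile the lines it used.

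MAGE-A, MAGE-B and MAGE-C genes form the type I group of the MAGE family. They are normally read in germ cells of the testis, are kept silent in most other tissues by DNA methylation of their CpG-rich promoters, and are read again in many tumours, where peptides of their proteins are shown to T cells on MHC class I molecules. Type I MAGE proteins bind RING ubiquitin ligases such as TRIM28 and change which proteins those ligases mark for destruction. Type II MAGE genes, such as MAGED1 and MAGED2, are read in many tissues.

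The libraries held 22450538, 23315828 and 23442542 counts in the CAG line and 21896246, 22528774 and 22889708 counts in the PGK line. Levels are given in CPM, read counts scaled by TMM to a common library size, and 3 counts in a library, used below as the floor of detection, were 0.126 to 0.140 CPM. In all, 62% of the 13103 genes tested differed between the lines at an adjusted p under 0.05 (edgeR's quasi-likelihood test, Benjamini-Hochberg), 31.6% higher and 30.4% lower in the CAG line. Of the HEK293T markers listed for the check of the cells, 6 of 8 had a row and their summed level was 750.8 to 784 CPM in the CAG line and 565.2 to 573.4 CPM in the PGK line; VIM, a mesenchymal filament, averaged 631.1 ± 12.2 CPM in CAG and 455.4 ± 3.13 CPM in PGK, while NEFM, a neurofilament, averaged 0.0852 ± 0.0729 CPM in CAG and 18.8 ± 1.23 CPM in PGK (SD, n = 3 each). INA, another neurofilament, averaged 45.8 ± 0.446 CPM in CAG and 10.5 ± 0.549 CPM in PGK, and EYA1, a kidney development factor, 5.23 ± 0.717 CPM in CAG and 2.57 ± 0.393 CPM in PGK. Of the 6 markers 3 were called higher and 1, NEFM, lower, beside the 31.6% and 30.4% of all tested genes. NEFM passed the filter on low counts through the PGK libraries alone, so it could not have been called higher. Summed germ cell markers stayed at 0.168 to 0.212 CPM in CAG and 0.0899 to 0.175 CPM in PGK, with 5 of 9, DAZL, NANOG, PRM1, PRM2 and TNP1, at 0 counts in every library. Immune markers summed to 2.03 to 2.60 CPM in CAG and 2.41 to 2.92 CPM in PGK, and hepatocyte markers to 0 to 0.0887 CPM in CAG and 0 to 0.186 CPM in PGK; CD68 was the 1 of these called, lower in CAG, and lost that call in 5 of 13 alternatives.

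Of the 3 well-read genes, MAGEA3 and MAGEA6 are near-identical copies, so their sequences are shown first. In the transcript form compared, each has 1762 bases, of which 25 differ, 18 of them among the 942 coding bases, so that 98.6% of bases are the same and the longest unbroken identical stretch is 409 bases. The coding stretch below, from transcript position 842 to 871 counted from the 5′ end, is one of the places where a read can be told apart. Capitals mark the substitutions G853A, C859T and G871A, with the MAGEA3 base first. The sequences are from GENCODE 29 on GRCh38, exonic and coding, at chrX:152701416-152701445 on the plus strand for MAGEA3 and at chrX:152767038-152767067 on the minus strand for MAGEA6.
MAGEA3: tcatgcccaagGcaggcCtcctgataatcG
MAGEA6: tcatgcccaagAcaggcTtcctgataatcA

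The promoter windows of MAGEA3 and MAGEA6 are identical. In RefSeq's promoter windows on GRCh38.p14, from 250 bases before to 50 bases after the start of transcription, both windows were the same in 300 of 300 bases and held 19 CpG sites each, where the median of all 35116 promoter windows is 14. A 30-base stretch that begins 86 bases before the start was chosen, after the sequences had been seen, to compare the family. It is printed for the genes that hold it and, as a contrast, for MAGEC1. Capitals mark letters that differ from MAGEA3. The stretches lie at chrX:152698708-152698737 (plus strand) for MAGEA3, chrX:152769746-152769775 (minus) for MAGEA6, chrX:152753873-152753902 (minus) for MAGEA2, chrX:152733745-152733774 (plus) for MAGEA12, chrX:151916207-151916236 (plus) for MAGEA4 and chrX:141903864-141903893 (plus) for MAGEC1.
MAGEA3: ggatgtgacgccactgacttgcgcattgga
MAGEA6: ggatgtgacgccactgacttgcgcattgga
MAGEA2: ggatgtgacgccactgacttgcgcattgga
MAGEA12: ggatgtgacgccactgacttgcgcGttgga
MAGEA4: ggatgtgaTgccactgacttgcgcattggG
MAGEC1: ggatgtgCTTTcCcGgCGGCCATcTtGgga

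CSAG1 lies head to head with MAGEA12, and its window holds the MAGEA12 stretch on the opposite strand. RefSeq's table held windows for 8 of the 10 genes; those of MAGEA1 and MAGEA10 were not used here. Of the 35116 windows, 18 (0.0513%) matched the stretch in at least 24 of 30 letters on either strand. They belong to 12 genes, all of them MAGE or CSAG genes or transcripts divergent from them, and 6 of the 12 are among the genes followed here. MAGEA9, with 26 identical letters, was the lowest of these, and MAGEA8, with 23, fell just short. MAGEC1 matched in 15 letters and MAGEC2 in 16, against a median best match of 15 over all windows. Among short motifs searched on both strands, CACTGACTTG, part of the stretch, was in 0.0797% of all windows and in those of 6 of the genes followed here, and GGATGTG, at its 5′ end, was in 4.29% of all windows and in those of all 8 genes. The Ets core CCGGAA was in 17.2% of all windows and in those of 2 of these genes, and the Sp1-type GGGCGG in 45% of all windows and in those of 3. A match of letters is a description and not a bound site.

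MAGEA1, the gene from which the first human tumour antigen seen by T cells was cloned, had 2687, 2800 and 2886 counts in the CAG libraries, against 0, 0 and 2 counts in the PGK libraries. Every CAG library was high and the PGK line was empty but for 2 reads in replicate 3. The level was 119.6 ± 1.28 CPM in CAG and 0.0292 ± 0.0506 CPM in PGK (SD, n = 3 each). The ratio of the 2 summed levels was 3980, with a 95% exact binomial counting interval of 1102 to 32870. The fitted log2 fold change of 11.72 (SE 0.16) depends on the prior count because so few reads stand in the PGK line. That SE, derived from the F statistic, understates the uncertainty: leaving out 1 library at a time gave 11.21 to 14.41. Without PGK replicate 3, the PGK line held no read of MAGEA1. In bulk RNA, fewer cells with a transcript and less of it per cell cannot be told apart, here or below. Its transcripts share little with other genes: 0.662% of their 50-base stretches and none of their 100-base stretches recur in a transcript of another gene, and MAGEA3 matches it in 84.2% of aligned bases.

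MAGEA6, whose protein joins TRIM28 in a ligase for the kinase AMPK, had 2215, 2394 and 2344 counts in the CAG libraries, against 27, 13 and 16 counts in the PGK libraries. All CAG libraries stood far above all PGK libraries, in which reads of the gene were few but present in each. The means were 99.3 ± 1.82 CPM in CAG and 0.847 ± 0.360 CPM in PGK (SD, n = 3 each), a log2 fold change of 6.87 (SE 0.11), and the ratio was 118 (counting interval 90.8 to 156.4).

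MAGEA3, its twin copy and a protein used in tumour vaccine trials, had 2370, 2402 and 2321 counts in the CAG libraries, against 2003, 2262 and 2244 counts in the PGK libraries. The lines overlapped once scaled to depth, with means of 101.4 ± 3.88 CPM in CAG and 97.7 ± 4.22 CPM in PGK (SD, n = 3 each). The log2 fold change was 0.05 (SE 0.05). Thus 1 copy of the pair was read at nearly the same level in both lines and the other at that level in the CAG line alone.

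**Figure D1:**
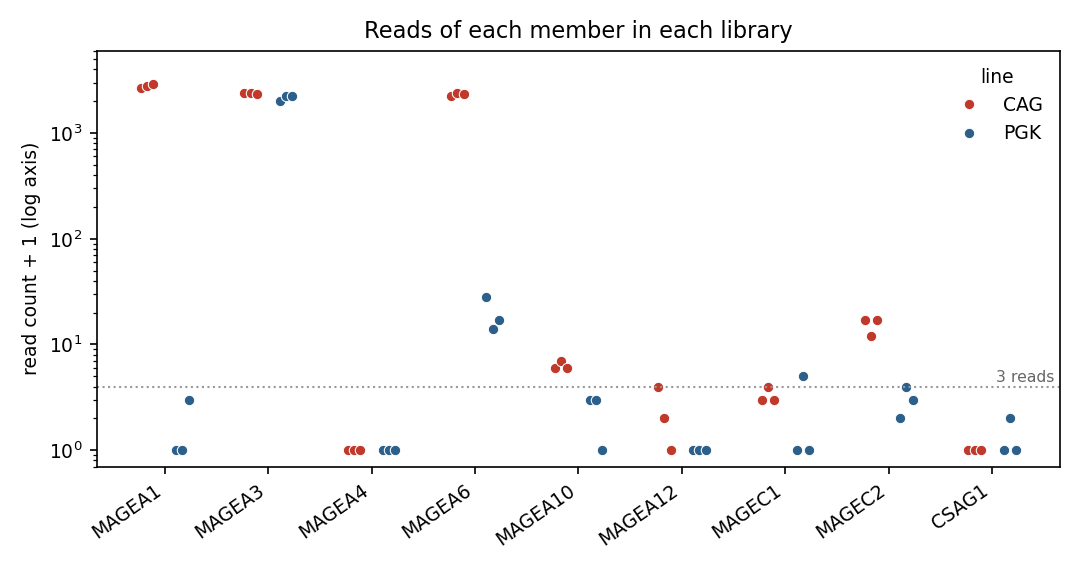
Read counts plus 1 (log axis) of the 9 genes with a row in each library, CAG libraries (red) left of PGK libraries (blue); the dotted line marks 3 reads. MAGEA1 and MAGEA6 are high in the 3 CAG libraries and near the bottom in the 3 PGK libraries, MAGEA3 is high in all 6, and the other 6 genes lie at or under 16 reads.

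The share of MAGEA6 within the pair puts both copies on 1 scale without any normalization. MAGEA6 held 48.3%, 49.9% and 50.3% of the reads assigned to MAGEA3 or MAGEA6 in the CAG libraries, with exact binomial 95% intervals that ran from 46.9% to 51.7%, against 1.33%, 0.571% and 0.708% in the PGK libraries, with intervals from 0.305% to 1.93%. The copies thus gave nearly equal reads in every CAG library, and MAGEA3 gave almost all of them in every PGK library. The mean share was 49.5% ± 1.04 in CAG and 0.870% ± 0.404 in PGK (SD, n = 3 each). No source used here says how reads that fit both copies were assigned, and 56.5% of the 50-base stretches of MAGEA3 and 53.9% of those of MAGEA6 recur in another gene's transcript, so the split between the copies is uncertain. When the reads of MAGEA3 and MAGEA6 were summed, the pair was higher in the CAG line by a log2 fold change of 1.03. Whether the few MAGEA6 reads in the PGK line came from MAGEA3 was not tested.

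Per kilobase of exon, which allows levels to be compared between genes, MAGEA1 was the highest in the CAG line at 69.9 ± 0.749 CPM per kilobase, and its range did not meet that of the next gene, as counted; if reads that fit both MAGEA3 and MAGEA6 were dropped in counting, those genes are understated and this order may differ. MAGEA3 followed at 56.7 ± 2.17 and MAGEA6 at 53.3 ± 0.976 CPM per kilobase (SD, n = 3 each), and the lowest MAGEA3 library, at 54.44, lay level with the highest MAGEA6 library, at 54.43. In the PGK line MAGEA3 stood at 54.7 ± 2.36, MAGEA6 at 0.455 ± 0.193 and MAGEA1 at 0.0171 ± 0.0296 CPM per kilobase. Among 19346 named rows ranked by this level, MAGEA1 was number 543, MAGEA3 number 725 and MAGEA6 number 783 in the CAG line, while in the PGK line MAGEA3 was number 802, MAGEA6 number 11412 and MAGEA1 number 14133. For scale, MAGED2, a type II gene, stood at 57.1 ± 1.81 CPM per kilobase in CAG and 38.03 ± 0.904 in PGK.

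**Figure D2:**
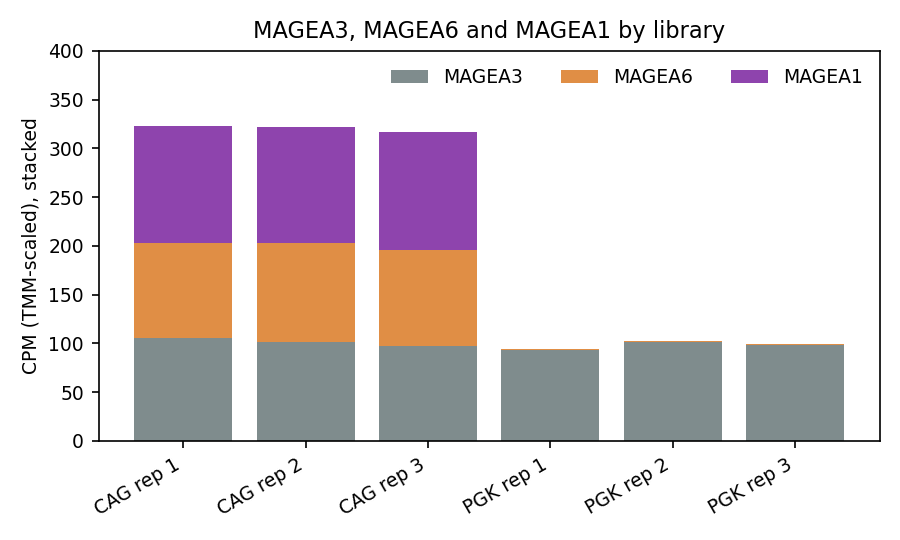
Levels of MAGEA3 (grey), MAGEA6 (orange) and MAGEA1 (purple) in each library, stacked, in CPM on the TMM-scaled library size; each bar is 1 library. The 3 CAG libraries reach about the same height with 3 visible parts, and the 3 PGK libraries hold the grey part alone to the eye.

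The replicate spread differed between these genes. For MAGEA1 in the CAG line the variance over that of a Poisson count was 0.327, with a coefficient of variation of 1.08%, and for MAGEA6 it was 0.779, with 1.83%. MAGEA3 spread more, at 3.45 times the Poisson variance in CAG and 3.97 times in PGK. MAGEA6 in the PGK line, on 13 to 27 reads, had a variance ratio of 3.35, and its highest library stood 2.15 times above its lowest.

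MAGEC2, whose protein binds TRIM28 and raises its ligase activity, had 16, 11 and 16 counts in the CAG libraries, against 1, 3 and 2 counts in the PGK libraries. All CAG libraries lay above all PGK libraries, and all were low. The level was 0.615 ± 0.131 CPM in CAG and 0.0897 ± 0.0442 CPM in PGK (SD, n = 3 each), and the ratio was 6.81 (counting interval 2.89 to 19.6). Its transcript shares 0.051% of its 50-base stretches with other genes.

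MAGEA10, another testis antigen, had 5, 6 and 5 counts in the CAG libraries, against 2, 2 and 0 counts in the PGK libraries. The lines did not overlap, but every library was within a few reads of the floor, and the ratio was 3.803 (counting interval 1.23 to 15.6). Its exons overlap the readthrough gene MAGEA10-MAGEA5 on the same strand, and 15.9% of its 50-base stretches recur in another gene's transcript, so these reads are uncertain.

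MAGEC1 had 2, 3 and 2 counts in the CAG libraries, against 0, 4 and 0 counts in the PGK libraries. The lines overlapped, and the ratio was 1.66 (counting interval 0.423 to 7.75). MAGEA12 had 3, 1 and 0 counts in CAG and none in PGK, and CSAG1 had none in CAG and 1 count, in replicate 2, in PGK. MAGEA4, whose protein is a target of engineered T cells, had 0 counts in all 6 libraries. MAGEA12, CSAG1 and MAGEA4 were therefore at or under the floor of 3 counts in every library, and a difference in them was not detectable at this depth.

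Of the 9 genes, 4 passed edgeR's filter on low counts (MAGEA1, MAGEA3, MAGEA6 and MAGEC2), and MAGEA1 and MAGEC2 passed it through the CAG libraries alone. All 3 CAG libraries lay above all 3 PGK libraries in 4 of the 9 (MAGEA1, MAGEA6, MAGEC2 and MAGEA10), while 33.5% of all tested genes had that order and 32% the opposite one. Since these values chose the genes, nothing is read from that count. Summed over the 9 genes, the level was 323.5, 322.6 and 317.7 CPM in the CAG libraries, against 94.7, 102.7 and 99.2 CPM in the PGK libraries. MAGEA1, MAGEA3 and MAGEA6 gave between 99.6% and 99.9% of it in each library. The remaining 6 genes together had 26, 21 and 23 counts in the CAG libraries, against 3, 10 and 2 counts in the PGK libraries.

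Levels are set beside the promoter match as a description, and a link between them was not tested. MAGEA3 and MAGEA6, identical over the whole window, were at nearly the same level in the CAG line and far apart in the PGK line, as counted with an uncertain split of reads. MAGEA2B, with 30 of 30 identical letters, averaged 3.11 ± 1.59 CPM in CAG and 1.78 ± 0.867 CPM in PGK. MAGEA12 and MAGEA4, with 29 and 28 of 30 identical letters, were at or under the floor in both lines, as was CSAG1. MAGEB2, a type I gene outside the list with 18 identical letters, averaged 9.06 ± 0.188 CPM in CAG and 2.85 ± 0.296 CPM in PGK.

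**Figure D3:**
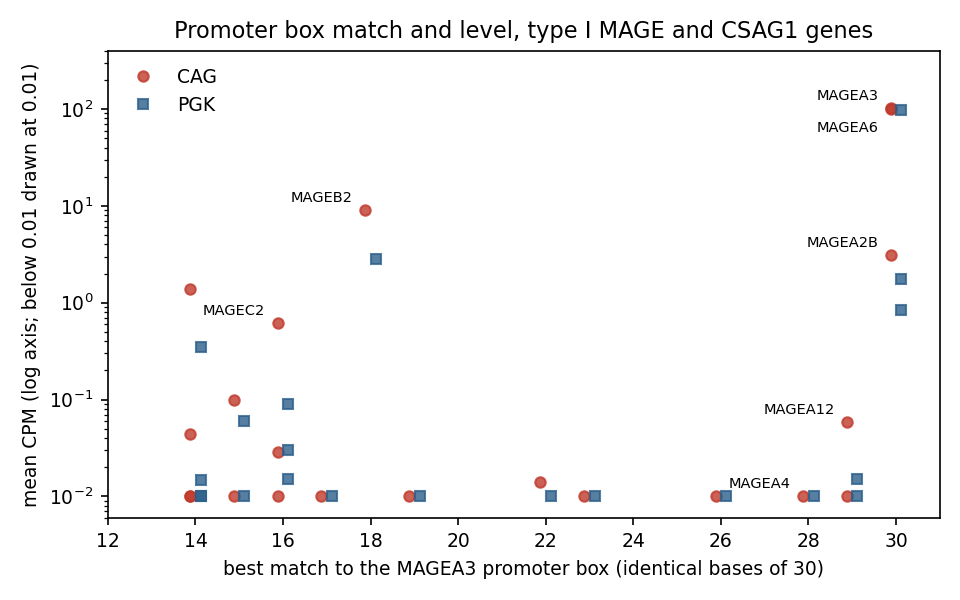
Mean level over 3 libraries in CPM (log axis, levels under 0.01 drawn at 0.01) of each type I MAGE or CSAG gene with a row and a RefSeq promoter window, against the best match of its window to the 30-base MAGEA3 stretch; CAG is red and PGK blue, and names stand beside the CAG points. MAGEA3 and MAGEA6 share a match of 30, and at that match the PGK levels run from 0.847 to 97.7 CPM.

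Near-identical copies set a limit on several other rows of the family. MAGEA2B, the inverted copy of MAGEA2, had 74, 34 and 110 counts in the CAG libraries, against 31, 25 and 63 counts in the PGK libraries. The lines overlapped, the difference was not called (log2 fold change 0.80, SE 0.55, adjusted p = 0.263 in edgeR's quasi-likelihood test), and the variance was 19.3 times Poisson in CAG and 9.49 times in PGK. That adjusted p ran from 0.000331 to 0.506 over 13 alternatives, and the gene was called without CAG replicate 2 and with the replicate number as a block. Of the 50-base stretches of MAGEA2B, 88.1% recur elsewhere, chiefly in MAGEA2. MAGED4 and MAGED4B, a type II pair that shares 99.0% and 96.3% of such stretches, also varied between libraries: MAGED4 had 129, 22 and 22 counts in CAG and 21, 151 and 17 counts in PGK, and MAGED4B had 24, 26 and 25 counts in CAG and 27, 15 and 85 counts in PGK. MAGED4 in 1 library of each line, and MAGED4B in PGK replicate 3, had several times the reads of the other replicates, while MAGED4B in the CAG line was even, with a coefficient of variation of 2.53%.

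**Figure D4:**
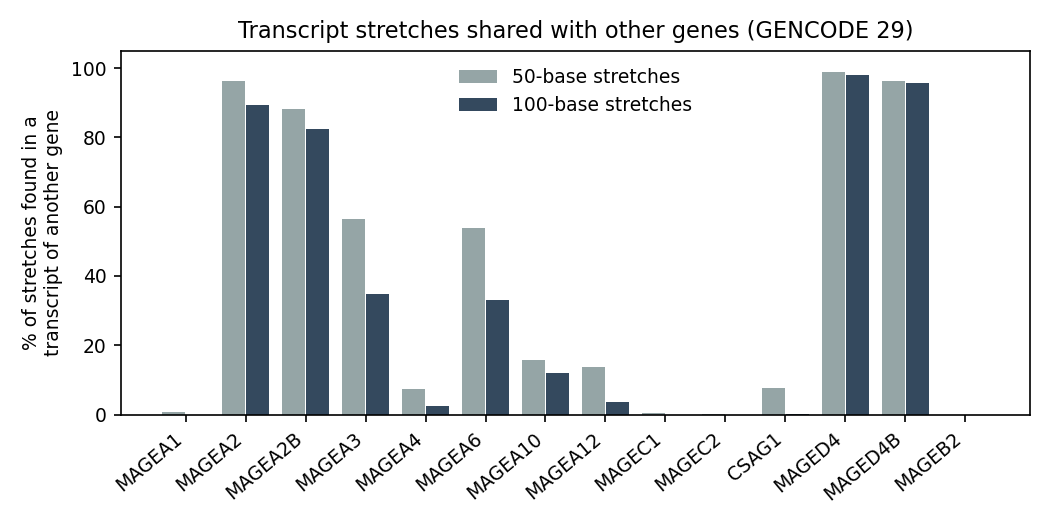
Share of 50-base (grey) and 100-base (dark) stretches of each gene's transcripts, in percent, that also occur in a transcript of another gene in GENCODE 29. MAGEA2, MAGEA2B, MAGED4 and MAGED4B are almost wholly shared, MAGEA3 and MAGEA6 about equally in part, and MAGEA1, MAGEC1 and MAGEC2 hardly at all.

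Among the other type I MAGE and CSAG genes, 15 of 18 had a row, 7 were at 0 in every library and 3 were tested. Of these 3, 2 were called higher in the CAG line and 0 lower, where 31.6% of all tested genes were higher and 30.4% lower. With 3 genes tested, nothing is read from that count. MAGEB2, linked to stress granules in germ cells, had 208, 209 and 217 counts in the CAG libraries, against 68, 62 and 59 counts in the PGK libraries. It rose by a log2 fold change of 1.67 (SE 0.12, adjusted p = 6.57e-10, edgeR), with an adjusted p between 1.24e-22 and 8.06e-08 over the alternatives. MAGEB6 had 25, 36 and 36 counts in CAG and 11, 6 and 6 counts in PGK, with a fitted difference of 1.98 on the log2 scale (SE 0.31, adjusted p = 1.94e-05, edgeR), but it passed the low-count filter through the CAG libraries alone, so it could not have been called lower. Both MAGE-B genes lie in another cluster of the X chromosome, on its short arm. In both the 3 CAG libraries lay above the 3 PGK libraries, an order that 33.5% of all tested genes had. MAGEB1, MAGEB10, MAGEB16, MAGEB17 and MAGEB18 had at most 2 counts in any library.

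Of the 12 type II genes, 9 were tested, 3 rose and 3 fell in the CAG line, a share near the 31.6% higher and 30.4% lower of all tested genes, with a median log2 fold change of -0.16 against -0.002 over all. MAGED1, an adaptor in cell death signalling, averaged 292.9 ± 5.48 CPM in CAG and 249.2 ± 9.70 CPM in PGK (log2 fold change 0.23, SE 0.05, adjusted p = 0.000229, edgeR). MAGED2, which acts in renal salt handling, averaged 167.9 ± 5.32 CPM in CAG and 111.8 ± 2.66 CPM in PGK (0.59, SE 0.05, adjusted p = 5.14e-09). NSMCE3, the MAGE subunit of the SMC5/6 complex, rose by 0.23 (SE 0.07, adjusted p = 0.00508). MAGEF1 fell to 45.5 ± 3.74 CPM in CAG, against 93.7 ± 2.27 CPM in PGK (-1.04, SE 0.06, adjusted p = 4.87e-11), and MAGEH1 to 1.81 ± 0.0795 CPM in CAG, against 6.03 ± 0.359 CPM in PGK (-1.73, SE 0.14, adjusted p = 4.56e-09; n = 3 each, model across all genes in edgeR). TRO, trophinin, fell by 0.16 on the log2 scale, a call lost without CAG replicate 3, and MAGEE1 was not called, at 6.29 ± 0.841 CPM in CAG and 5.36 ± 0.570 CPM in PGK.

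Of the ligases that MAGE proteins bind and their known targets, 10 of 13 were tested, 3 rose and 3 fell, near the 31.6% higher and 30.4% lower of all tested genes, with a median log2 fold change of 0.05. TRIM28, the ligase partner of MAGEA3, MAGEA6 and MAGEC2 and itself a corepressor in heterochromatin, had 767.7, 746.6 and 796.2 CPM in the CAG libraries, against 489.9, 466.7 and 513.0 CPM in the PGK libraries. It rose by a log2 fold change of 0.65 (SE 0.05, adjusted p = 1.53e-09, edgeR). PRKAA1, the catalytic subunit of AMPK, fell by 0.34 (SE 0.06, adjusted p = 9.74e-05), and NSMCE1, the RING ligase beside NSMCE3, by 0.41 (SE 0.06, adjusted p = 1.32e-05). PJA1, a partner of MAGED1, rose by 0.23 and USP7 by 0.13, and the call of USP7 was lost in 5 of 13 alternatives. These are levels of mRNA, and the proteins were not measured.

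Of the factors listed as acting on cancer-testis promoters, all 20 with a row were tested. In the CAG line 9 rose and 5 fell, where 31.6% of all tested genes rose and 30.4% fell. The median log2 fold change was -0.01, and nothing is read from these counts. Of those that rose, DNMT3A lost its call in 7 of 13 alternatives. DNMT1, which copies DNA methylation after replication, had 452.0, 451.6 and 432.3 CPM in the CAG libraries, against 586.9, 583.2 and 558.6 CPM in the PGK libraries, and fell by 0.37 on the log2 scale (SE 0.05, adjusted p = 9.69e-07, edgeR). DNMT3B, which adds new methylation, averaged 46.9 ± 1.20 CPM in CAG and 51.1 ± 0.657 CPM in PGK and just missed the threshold (log2 fold change -0.12, SE 0.05, adjusted p = 0.0525, and 0.0229 to 0.162 over the alternatives). ATRX, a chromatin remodeller of heterochromatin, averaged 134.2 ± 12.4 CPM in CAG and 73.8 ± 4.75 CPM in PGK (0.86, SE 0.07, adjusted p = 5.06e-09). EZH2, the methyltransferase of Polycomb, rose by 0.64 and HDAC1, a deacetylase, by 0.63, with SE 0.05 each. ETS1, a member of the Ets factors, fell by 0.52 (SE 0.09, adjusted p = 0.000101), and was low, at 7.03 ± 0.168 CPM in CAG and 10.1 ± 0.658 CPM in PGK. CTCFL, a testis paralogue of CTCF that acts at MAGE-A promoters, was held in the autosomal cancer-testis list and is not among these 20. It had 1, 1 and 1 counts in CAG and 1, 1 and 4 counts in PGK and was not tested. Whether any of these levels bears on the MAGE genes was not tested.

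Most other cancer-testis genes listed were not read or were too low to test. On the X chromosome 47 of 57 such genes had a row, 33 were at 0 in every library and 1, FAM133A, was tested and not called, at 1.08 ± 0.251 CPM in CAG and 1.33 ± 0.303 CPM in PGK (log2 fold change -0.30, SE 0.25, adjusted p = 0.306, edgeR). So 0 of them were called, also at an unadjusted p under 0.05 (FAM133A, 0.242), and by DESeq2 and limma-voom. With no filter on low counts CT55 and RHOXF1 were called: CT55 had 12, 10 and 5 counts in CAG and 1, 1 and 0 counts in PGK, and RHOXF1 had 6, 3 and 5 counts in CAG and 1, 1 and 1 counts in PGK. Of the autosomal cancer-testis and germline genes, 13 of 35 were tested, 1 rose and 6 fell, where 31.6% of all tested genes rose and 30.4% fell, with a median log2 fold change of -0.21, and 9 were at 0 throughout; GTSF1, a germ cell gene described below, was not in that list. ZNF165, a testis zinc finger gene, rose by 0.77 (SE 0.15, adjusted p = 0.000185). CEP55, a cytokinesis gene, fell by 0.56, TEX15, a germ cell gene, by 0.43, and OIP5, a centromere gene, by 0.35. PRAME, a widely used tumour antigen, averaged 65.9 ± 0.394 CPM in CAG and 72.6 ± 0.935 CPM in PGK, and the call of that small difference was lost in 4 of 13 alternatives.

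The genes that present MAGE peptides, those of MHC class I antigen processing, were tested in 13 of 16 cases, with a median log2 fold change of -0.13. Of the 13, 5 were higher and 5 lower, where 31.6% of all tested genes were higher and 30.4% lower. NLRC5 was not tested in the main fit, with 20, 18 and 9 counts in CAG and 2, 3 and 2 counts in PGK. It was called higher in all 5 alternatives that tested it. TAPBP, tapasin, which loads peptides onto MHC class I, had 172, 174 and 203 counts in CAG, against 9, 3 and 6 counts in PGK. It rose by a log2 fold change of 4.83 (SE 0.22, adjusted p = 2.32e-12, edgeR). TAPBP passed the low-count filter through the CAG libraries alone, so it could not have been called lower. TAP1 and TAP2, the peptide transporters, fell by 0.33 and 0.35 on the log2 scale, and HLA-E by 0.31. ERAP1, a peptide-trimming enzyme, rose by 0.41 (SE 0.10, adjusted p = 0.00221), and B2M, the light chain, was at 126.5 ± 7.07 CPM in CAG and 126.2 ± 3.65 CPM in PGK. HLA-B and HLA-C rose by 0.22 and 0.15, but HLA genes are alike in sequence and the call of HLA-C was lost in 4 of 13 alternatives.

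The genes whose pattern over the 6 libraries was nearest to that of MAGEA1, by Euclidean distance of log2 CPM (prior count 2) centred for each gene, came from several chromosomes. GTSF1, a piRNA factor of germ cells on chromosome 12, was nearest at a distance of 1.57, with 1063, 1008 and 1047 counts in the CAG libraries and 0 counts in each PGK library. LRRC61 at 2.23 and ZBED6CL at 2.55, both on chromosome 7, followed, with 31.2 ± 0.861 CPM in CAG and 0.0146 ± 0.0253 CPM in PGK for LRRC61. C22orf34, listed as a long noncoding RNA, came next at 3.55, and then MAGEA6 at 4.19. These distances were computed on the same values that chose MAGEA1 and describe likeness only.

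Along the X chromosome, the tested rows from MAGEA6 to ZNF275, the row after MAGEA1, were called higher, while MAGEA3 and GABRE lie outside that stretch. The stretch was picked after the calls were seen, and MAGEA6 and MAGEA1 were chosen with their values known. Nothing is therefore read from it. The 9 rows fall into 6 runs, and the 3 nearest genes with at least 10 counts on each side of each run make 20 neighbours, of which 9 rose and 8 fell. Over the whole chromosome, 64.3% of 459 tested genes were called, 232 higher and 63 lower, with a median log2 fold change of 0.19, against -0.002 over all tested genes. GABRA3, a GABA-A receptor subunit that lies 1 row before MAGEA3, had 184, 201 and 193 counts in the CAG libraries and 0 counts in each PGK library. GABRE, another subunit, 2 rows before GABRA3, had 4, 5 and 7 counts in CAG and 42, 44 and 45 counts in PGK. It fell by 3.08 on the log2 scale (SE 0.28, adjusted p = 2.59e-08, edgeR). GABRA3 and GABRE, only a few rows apart, thus differed in opposite directions. Each passed the low-count filter only through the line where it was high, so each could be called in 1 direction only.

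The tested genes between MAGEA6 and MAGEA1, in the stretch picked with its calls known, rose in the CAG line by differing amounts. CETN2, a centrin next to MAGEA6, rose by a log2 fold change of 0.27 (SE 0.06), NSDHL, a sterol enzyme, by 0.34 (SE 0.06) and ZNF185 by 0.77 (SE 0.11). PNMA3, of the paraneoplastic antigen family, had 125, 145 and 127 counts in the CAG libraries, against 13, 9 and 8 counts in the PGK libraries. It rose by 3.64 (SE 0.20, adjusted p = 3.69e-11, edgeR). PNMA3 passed the low-count filter through the CAG libraries alone, so it could not have been called lower. Its relative PNMA6A, 1 row before MAGEA1, rose by 1.04 (SE 0.25, adjusted p = 0.00155). ZNF275, 1 row after MAGEA1, rose by 0.30 (SE 0.05). TREX2, an exonuclease gene further on, was called lower by 0.42 on the log2 scale although its lines overlapped, and that call was lost in 7 of 13 alternatives.

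On the other side of GABRE, before MAGEA4, GPR50, an orphan receptor, averaged 2.01 ± 0.174 CPM in CAG and 7.69 ± 0.111 CPM in PGK, and fell by 1.93 on the log2 scale (SE 0.13, adjusted p = 3.31e-10, edgeR). HMGB3, a chromatin protein, fell by 0.33 on the log2 scale, and VMA21, which helps assemble the vacuolar proton pump, was not called, at 81.6 ± 3.59 CPM in CAG and 77.9 ± 0.440 CPM in PGK. HAUS7, after TREX2, was not called either, at 0.711 ± 0.197 CPM in CAG and 0.733 ± 0.202 CPM in PGK.

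Around MAGEC1 and MAGEC2, LDOC1, LINC00632, SOX3 and AFF2 were called lower in the CAG line, and FMR1 and IDS higher. Of all tested genes, 30.4% were lower and 31.6% higher, and nothing is read from the directions of so few neighbours. LDOC1 averaged 24.4 ± 0.907 CPM in CAG and 48.3 ± 1.70 CPM in PGK, and SOX3, a transcription factor, had 2, 2 and 2 counts in CAG and 18, 16 and 14 counts in PGK. LINC00632, a noncoding RNA, fell by 2.55 on the log2 scale (SE 0.32). AFF2, the gene of fragile site FRAXE, had 7, 2 and 9 counts in CAG and 471, 566 and 529 counts in PGK. It fell by 6.48 on the log2 scale (SE 0.18, adjusted p = 1.37e-15, edgeR). SOX3, LINC00632 and AFF2 passed the low-count filter through the PGK libraries alone, so they could not have been called higher. FMR1 and IDS, read in most cells, rose by 0.13 and 0.18, and the calls were lost in 3 and 1 of 13 alternatives. MAGEC2 was thus higher in the CAG line beside genes of both directions.

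**Figure D5:**
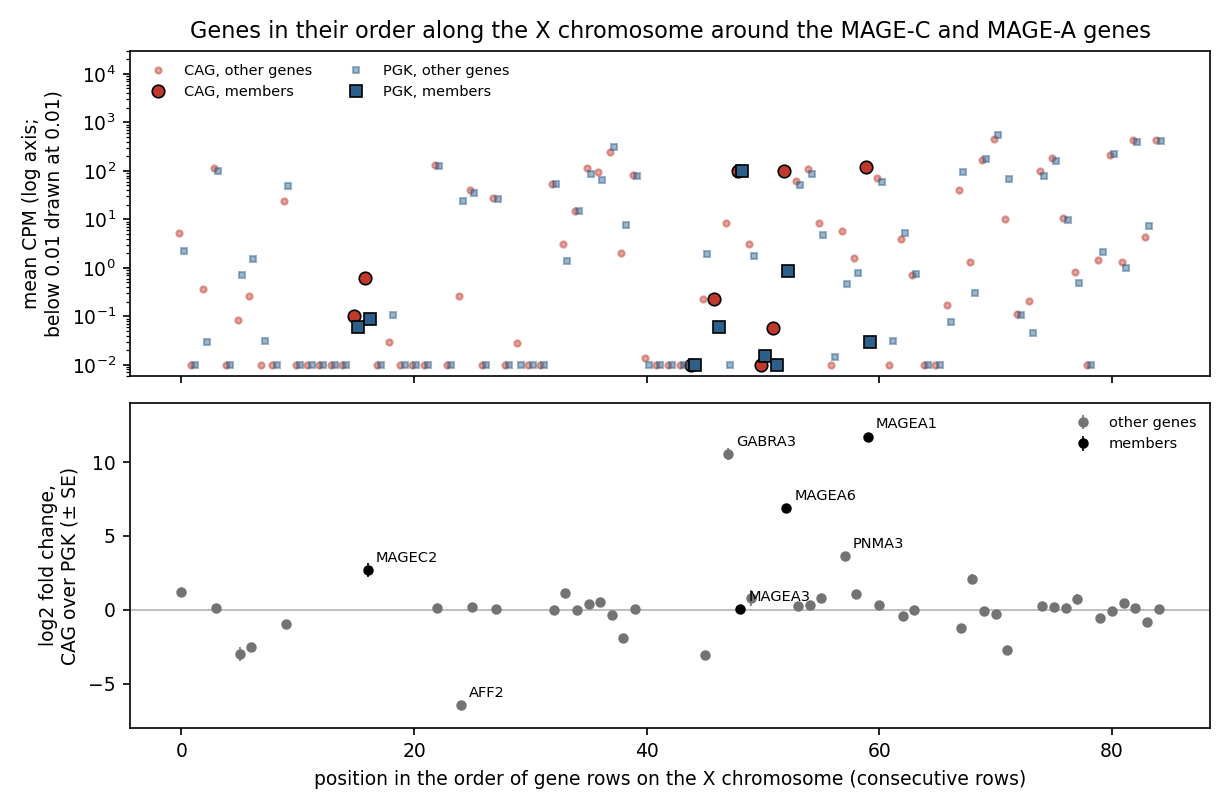
The 85 consecutive X-chromosome rows around the MAGE-C and MAGE-A genes in chromosomal order: above, mean CPM over 3 libraries (log axis, levels under 0.01 drawn at 0.01) in CAG (circles) and PGK (squares), and below, the log2 fold change of CAG over PGK with its SE for the 47 tested rows. MAGEA1, GABRA3 and MAGEA6 stand above the other tested rows, PNMA3 lies at 3.64, MAGEA3 at 0.05, and AFF2 is the lowest, at -6.48.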

How the data were processed

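The deposited table holds raw read counts by Ensembl gene (20169 rows) for 6 libraries, neither normalized nor pooled by the authors. Per the labels' protocols, cells were taken below confluence, RNA was extracted with Trizol, and polyA RNA went into directional libraries. Per the submitters' processing notes, the tools were featureCounts 2.0.3, HISAT2 2.2.1, Bowtie2 2.5.1 and cutadapt 4.6, and the genome was hg19. What each did, the gene annotation, the strand option and the treatment of reads that fit several places are not given in these sources, so reads of near-identical or antisense genes can be shared or lost.

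GENCODE 29 (GRCh38) named 19346 rows and left 823 without a symbol; it was used for names, order, exon length and transcript comparison, and coordinates printed are GRCh38, not those of the counting. Columns matched the labels with 0 left over. Counts were filtered with filterByExpr, scaled by TMM and tested by edgeR 4.0.16 in R 4.3.3 (quasi-likelihood, robust, two-sided), with Benjamini-Hochberg adjustment over 13103 genes; called means an adjusted p under 0.05. Fold changes are CAG over PGK, and an SE is derived from the fold change and its F statistic. The biological coefficient of variation was 0.0494, and p-values measure the spread between libraries, which may be technical. The analysis was tested on simulated counts. Counting intervals are 95% exact binomial (Clopper-Pearson) ones and the floor is 3 counts per library; both cover counting error alone, as PCR copies of a molecule are counted too.

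The genes followed, the gene lists (other type I MAGE, type II MAGE, ligase partners and targets, X-linked and autosomal cancer-testis, regulators, MHC class I, and HEK293T, germ cell, immune and hepatocyte markers) and the tests were chosen with earlier results of these data known. RHOXF1 was moved between lists to match its chromosome after its counts were seen. Named were all 10 genes, other MAGE and CSAG rows with at least 10 counts, up to 4 called genes with the largest change per list plus TRIM28, DNMT1, DNMT3B and CTCFL, the 5 genes most like MAGEA1, and the 3 nearest rows with at least 10 counts on each side; others were chosen after their values were seen. One gene of the partner list is not reported here. Alternatives were other filters, RLE or library-size scaling, DESeq2 1.42.0, limma-voom (limma 3.58.1), a replicate block, a test against a fold of 1.5, other prior counts, summed copies and leaving out each library. Calls lost out of 13 alternatives, and ranges of adjusted p over them, leave out the test against a fold of 1.5. They also leave out other prior counts and summed copies.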

Additional observations from a re-analysis of the deposited data

How the results depend on the processing

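Of 257 values recomputed under an alternative, 240 stayed within a set range of the main value and 17 did not. For counts of genes the range was 1.5 times the main count. Counts within that range still moved as single genes lost or gained a call. For fold changes the range was the SD of log2 CPM between libraries, combined over both lines. All 5 fold changes outside it kept their direction. Testing against a fold of 1.5 left 954 genes higher and 558 lower in the CAG line. In the lists it left 2 other type I genes higher, and 0 type II genes higher and 2 lower. It left 0 ligase partners and targets higher and 0 lower, and 0 autosomal cancer-testis genes higher and 0 lower. Of the regulators 1 stayed higher (ATRX) and 0 lower, and of the MHC class I genes 1 higher (TAPBP) and 0 lower. Without the low-count filter, 2 X-linked cancer-testis genes were called higher. As a log2 CPM difference with a prior count of 2, MAGEA1 stood at 10.06 and MAGEC2 at 1.99, and with copies summed MAGEA3 and MAGEA6 both stood at 1.03. Leaving out 1 library at a time gave 11.21 to 14.41 for MAGEA1 (14.41 without PGK replicate 3, when the PGK line holds no read), 6.67 to 7.26 for MAGEA6, 0.02 to 0.08 for MAGEA3 and 2.41 to 3.08 for MAGEC2, with 3823 to 4086 genes higher and 3503 to 3956 lower.

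Whether the replicate numbers pair the libraries could not be settled with 3 libraries per line. Deviations from the line means correlated weakly, at 0.11, 0.10 and 0.013 for numbers 1, 2 and 3. Yet every CAG library matched the PGK library of its own number best. With the replicate block, 4461 genes were higher and 4400 lower, and MAGEA2B was called. The sum of MAGEA2 with MAGEA2B was not run, and MAGEC2 was not kept by the stricter filter of 1 CPM in 3 libraries. Depth limits MAGEA4, MAGEA10, MAGEA12, MAGEC1, MAGEC2 and CSAG1, which rest on at most 16 reads in a library.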
